A study of Mus musculus with 18 samples.

Results

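The subunits of the respiratory chain were examined in the livers of mice that carry the A226Y substitution in ribosomal protein Rps2. Members were chosen by gene symbol and comprised the Ndufa, Ndufb, Ndufc, Ndufs and Ndufv genes, the 4 Sdh genes, the Uqcr genes, the Cox4 to Cox8 genes, the Atp5 genes and the mt-Nd, mt-Co, mt-Atp and mt-Cyt genes. Ndufb10, which lies beside Rps2 on the chromosome, and pseudogenes were left out. This gave 95 genes of the 22524 in each library, of which 42 belonged to complex I, 4 to complex II, 9 to complex III, 21 to complex IV and 19 to complex V. The mitochondrial genome encodes 13 of them and the nuclear genome 82. Ndufa4 was counted under complex I by its symbol, although its protein is placed with complex IV, and Cyc1, a complex III subunit whose symbol the rule does not take, was counted among the electron carriers.

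RNA-seq libraries of whole liver came from 10 female Rps2-A226Y animals and from 8 female WT animals, all aged 15 months. The A226Y animals are heterozygous for a knock-in allele that CMV-Cre, a ubiquitous deleter, switches on by excision of a floxed cassette. The WT animals carry the ubiquitous Cre as well. Excision is not complete in every cell, so the A226Y livers are mosaics that also hold cells with the unexcised floxed allele. That allele is inactive because the cassette stops transcription, and the paper describes animals that carry it as haploinsufficient for Rps2. A lower dose of Rps2 and the A226Y substitution therefore cannot be told apart in the comparison of A226Y with WT livers. The line was made in 129/Sv embryonic stem cells and backcrossed to C57BL/6, and an Rps2-loxP line without Cre was not analysed here. The paper reports few differing genes in that line and little overlap with those of A226Y livers.

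The respiratory chain sits in the inner mitochondrial membrane. Complex I oxidises NADH and complex II oxidises succinate, and both pass electrons through ubiquinone to complex III. Complex III hands them to cytochrome c, complex IV passes them to oxygen, and complex V, the ATP synthase, uses the resulting proton gradient to make ATP. Complexes I, III, IV and V are assembled from subunits of both genomes and complex II from nuclear subunits alone. Hepatocytes are rich in mitochondria and draw on this chain for gluconeogenesis and the urea cycle.

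Read counts per library ranged from 23850565 to 62126131. Rps2 itself, the targeted gene, read 46.9, 72.5 and 83 CPM (counts scaled to the library total after TMM adjustment; lowest, median and highest) in A226Y livers and 104, 109 and 143 CPM in WT livers, with no overlap between the groups (log2 fold change -0.73, SE 0.11, adjusted p = 0.000772; exact permutation p = 2.29e-05, the smallest the permutations can give). Its level is uncertain in scale because 76.8% of its 50-base windows also occur in 71 other annotated genes. Of the hepatocyte markers, 2 of 8 passed the test, both higher in A226Y, beside 7.27% higher over all genes tested. All 8 were strongly expressed (summed level 79084 to 151034 CPM in A226Y and 94693 to 181229 CPM in WT). The Kupffer cell list had 1 of 6 lower, beside 7.03% lower over all genes tested, and 5 of its 6 genes had a log2 fold change below 0 (median -0.448). Its summed level had a median of 345 CPM in A226Y (249 to 1042) and of 558 CPM in WT (379 to 778), 7 of 10 A226Y livers lay below every WT liver, and the highest value was that of A226Y 29. The stellate cell list had 2 of 5 lower, the collagen genes Col1a1 and Col3a1. Its other genes did not pass, with log2 fold changes of 0.18 for Dcn, 0.00 for Reln and -0.17 for Lrat. The summed level of that list had a median of 334 CPM in A226Y (298 to 356) and of 303 CPM in WT (287 to 363). None of the sinusoidal endothelial, cholangiocyte, lymphocyte or erythrocyte markers passed. In bulk tissue, fewer cells of a type and less RNA per cell cannot be told apart. The part of these marker differences in the results below was not tested. The libraries A226Y 23, A226Y 29 and WT 33 stood apart from the rest in the measures of the respiratory chain, and counts of genes that passed are given with and without them. Without them the markers that passed were 1 higher and 1 lower of the hepatocyte list, 3 lower of the Kupffer cell list and 2 lower of the stellate cell list. Over all genes tested in that setting 8.33% were higher and 8.93% lower.

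Most respiratory chain subunits differed little between A226Y and WT livers. Of the 95 genes, 85 had enough counts to be tested (10 counts or more in 50% or more of either group's mice), and 5 passed at an adjusted p below 0.05 in edgeR's quasi-likelihood test. One of the 5 was higher in A226Y, Cox6b2, and 4 were lower, Ndufa7, Ndufa3, Uqcrq and Atp5l. Over all 13353 genes tested, 14.3% passed, 7.27% higher and 7.03% lower in A226Y, so the 5.88% of subunit genes that passed lay below the background. The median log2 fold change of the 85 subunit genes was 0.004, beside -0.004 for all tested genes. The subunit genes were measured precisely, with a median SE of 0.081 on the log2 scale. The 95% interval of the log2 fold change lay within a 1.5-fold change in either direction for 82 of 85 genes, the exceptions being Cox6b2, Cox7a1 and mt-Nd3. Without A226Y 23, A226Y 29 and WT 33 the number that passed was 13 of 85, with 2 higher and 11 lower. That was 15.3% beside 17.3% of all genes tested, and by direction 2.35% were higher and 12.9% lower, beside 8.33% and 8.93% of all genes, so that the share lower lay above the background in this setting and below it with all mice. The 11 were Ndufa2, Ndufa3, Ndufa6, Ndufa7, Ndufa13, Ndufb2, Ndufb11, Uqcrq, Cox4i1, Atp5e and Atp5l, and the 2 were Cox6b2 and mt-Nd5. These libraries were picked after seeing the data for their low counts of mitochondrial genes, and 2 of the 3 are A226Y, so the setting raises the A226Y level of such genes by its construction. Nuclear subunit genes were high in A226Y 23 and low in A226Y 29 and WT 33, so their group levels also move when these are left out. The calls of this setting, lower and higher, are a description only. When mice were left out one at a time Cox6b2 always passed, whereas the call was lost in 9 of 18 cases for Ndufa7, 10 for Uqcrq, 11 for Ndufa3 and 13 for Atp5l. None of these 4 passed without A226Y 3, A226Y 11, A226Y 22, WT 13, WT 14 or WT 24. With 4 surrogate variables in the model, 50 of all genes and none of the subunit genes passed.

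**Figure D1:**
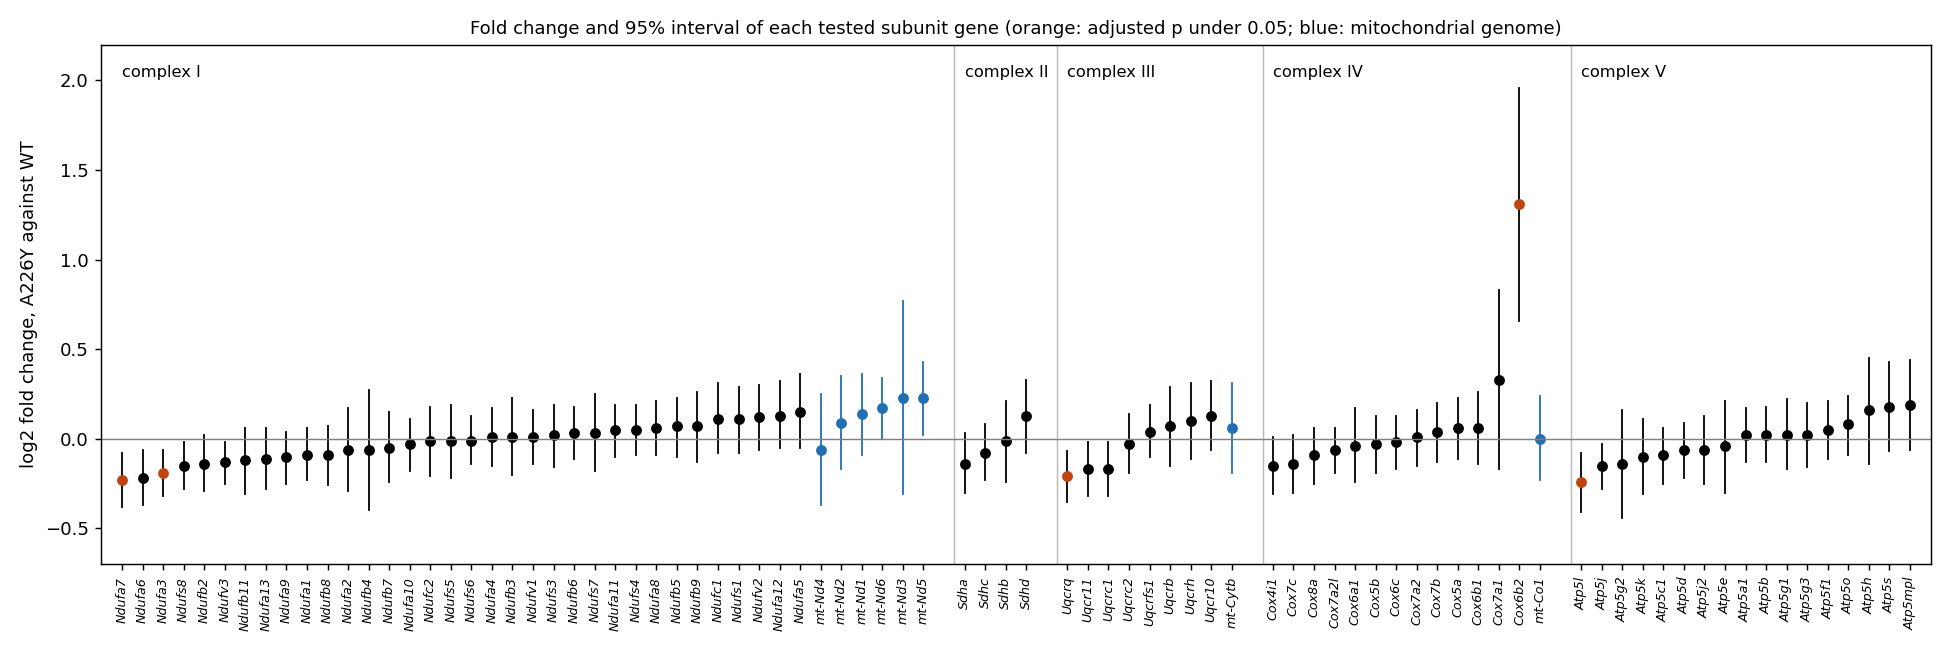
Log2 fold change of 84 of the 85 tested subunit genes between 10 A226Y and 8 WT livers (vertical axis), with the genes grouped by complex along the horizontal axis and 95% intervals as bars. Orange points mark the 5 genes that passed the test, and blue marks the mitochondrial genome. All points but Cox6b2 lie between -0.24 and 0.33.

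By complex, 2 of 41 tested genes passed in complex I, both lower, with a median log2 fold change of 0.011. None of 4 passed in complex II (median -0.045). One of 9 passed in complex III, lower (median 0.044), 1 of 14 in complex IV, higher (median -0.010), and 1 of 17 in complex V, lower (median 0.021). By genome, 5 of 77 nuclear genes passed (median -0.013) and none of 8 tested mitochondrial genes (median 0.113, or 0.206 with a length offset and 0.013 with a GC offset). At an unadjusted p under 0.05, 1 nuclear gene was higher and 10 were lower (1.3% and 13% of the 77), and 2 mitochondrial genes were higher, beside 14.9% higher and 14.7% lower over all tested genes. Genes with few exon bases (all annotated exons of a gene merged) were shifted as a class. The 808 tested genes no longer than the median subunit gene by this length had a median log2 fold change of -0.089, with 87 lower and 21 higher past the test. A correction for this merged exon length raised the median of the subunit genes to 0.071 and moved the calls, with Atp5l and Cox6b2 kept, Ndufa3, Ndufa7 and Uqcrq lost and mt-Nd6 gained. The merged length is not that of a transcript and can be far longer. For Atp5l it is 6443 bases, beside 544 for the transcript with the longest coding sequence.

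Ndufa7, an accessory subunit of the NADH-oxidising module of complex I, read 65.3, 77.3 and 88.3 CPM (lowest, median and highest) in A226Y and 75.2, 87.8 and 108 CPM in WT. The groups overlapped, 4 of 10 A226Y livers lay below every WT liver and all 10 lay below the WT mean of 90.1 ± 10.7 CPM (SD, n = 8). The log2 fold change was -0.23 (SE 0.07, adjusted p = 0.0389; exact permutation p = 0.00633). Ndufa7 lies 9.10 Mb from Rps2 on chromosome 17, where 109 of 648 tested genes passed (16.8%, beside 14.3% of all tested genes), 66 of them lower (10.2%, beside 7.03%) and 43 higher. Ndufv3, another accessory subunit of the same module, is nearer at 6.80 Mb and had a log2 fold change of -0.13 (SE 0.06, adjusted p = 0.109). The 3 other chromosome 17 members, Ndufa11, Ndufv2 and Cox7a2l, lie 32, 41.36 and 58.78 Mb away and had log2 fold changes of 0.05, 0.12 and -0.06. How much of these differences belongs to the chromosome around the modified gene was not tested.

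Ndufa3, an accessory subunit of the membrane arm of complex I, read 47.5, 54.7 and 61.1 CPM in A226Y and 49.2, 62.4 and 68.4 CPM in WT. All 10 A226Y livers lay below the WT mean of 61.8 ± 6.29 CPM, and 1 lay below every WT liver, of which WT 33 was the lowest. The log2 fold change was -0.19 (SE 0.06, adjusted p = 0.0451; exact permutation p = 0.00935). By annotation Ndufa3 overlaps Tfpt, whose reads can be credited to it where counting ignores strand. The next complex I gene in order of p was Ndufa6, an accessory subunit of the LYR protein family, at 134 ± 12.2 CPM in A226Y (n = 10) and 155 ± 19.1 CPM in WT (n = 8), with a log2 fold change of -0.22 (SE 0.08) and an adjusted p of 0.0591. Among the catalytic core subunits, Ndufs1 and Ndufv1 had log2 fold changes of 0.11 and 0.01, with intervals of -0.08 to 0.29 and -0.14 to 0.16. Ndufs3, Ndufs7 and Ndufv2 were at 0.02, 0.03 and 0.12. Ndufs8 went the other way, at -0.15 (interval -0.28 to -0.02, adjusted p = 0.104), with 6 of 10 A226Y livers below every WT liver.

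**Figure D2:**
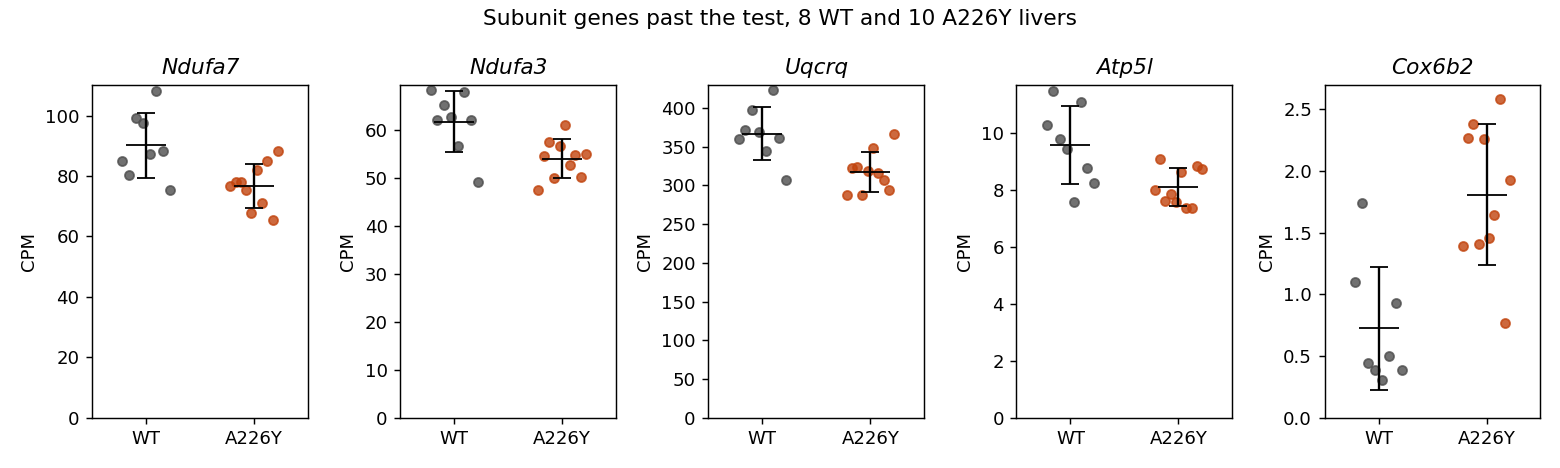
CPM of the 5 subunit genes that passed the test in each of 8 WT (grey) and 10 A226Y (orange) livers, with the mean and SD as a black bar. The groups overlap in every panel, and A226Y livers lie on average lower for Ndufa7, Ndufa3, Uqcrq and Atp5l and higher for Cox6b2.

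The 4 genes of complex II, which is also the succinate dehydrogenase of the citric acid cycle, did not pass. Sdha, the flavoprotein subunit, read 321, 462 and 500.1 CPM in A226Y and 427, 495 and 549 CPM in WT (log2 fold change -0.14, SE 0.08, adjusted p = 0.257). The lowest value was that of A226Y 29, and 2 of 10 A226Y livers lay below every WT liver. Sdhb, the iron-sulphur subunit, had a log2 fold change of -0.01 with an interval of -0.24 to 0.21. The membrane anchors were Sdhc at -0.08 (interval -0.23 to 0.08) and Sdhd at 0.13 (interval -0.08 to 0.33). Sdhd lay above the WT mean in 9 of 10 A226Y livers, with A226Y 29 lowest at 177 CPM.

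In complex III, Uqcrq, the small subunit near the ubiquinone site, read 287, 317 and 367 CPM in A226Y and 307, 365 and 423 CPM in WT. In 4 A226Y livers the value lay below every WT liver and all 10 lay below the WT mean of 367 ± 34.4 CPM. The log2 fold change was -0.21 (SE 0.07, adjusted p = 0.0410; exact permutation p = 0.00368). The core protein gene Uqcrc1 and the small subunit gene Uqcr11 each had a log2 fold change of -0.17 (SE 0.07), with adjusted p-values of 0.126 and 0.118, and in both all 10 A226Y livers lay below the WT mean. The catalytic Rieske protein gene Uqcrfs1 had a log2 fold change of 0.04 (interval -0.10 to 0.19), and the other core protein gene Uqcrc2 one of -0.03 (interval -0.19 to 0.14). Cyc1 was among the electron carriers that did not pass.

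In complex V, Atp5l, which encodes subunit g of the membrane part of the ATP synthase, read 7.38, 7.93 and 9.1 CPM in A226Y and 7.58, 9.61 and 11.5 CPM in WT. In 2 A226Y livers the value lay below every WT liver and all 10 lay below the WT mean of 9.60 ± 1.38 CPM. The log2 fold change was -0.24 (SE 0.08, adjusted p = 0.0484; exact permutation p = 0.0091). The value is uncertain because 68.5% of the 50-base windows of its transcript also occur in 13 other annotated genes, and how reads from them were counted is not stated. The catalytic subunits Atp5a1 and Atp5b, the highest nuclear subunit genes in CPM without regard to length, read 1121 ± 112 and 1367 ± 142 CPM in A226Y and 1104 ± 81.3 and 1346 ± 104 CPM in WT. Both had a log2 fold change of 0.02, with intervals of -0.13 to 0.17 and -0.13 to 0.18. Atp5j, coupling factor 6, had a log2 fold change of -0.15 (SE 0.06) and an adjusted p of 0.0962.

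Cox6b2 had the largest fold change of the 85 tested genes. It encodes the testis form of subunit VIb of cytochrome c oxidase and was rare in liver, with 10 to 159 counts per library. It read 1.39, 2.27, 2.38, 1.41, 2.26, 1.46, 1.64, 2.58, 0.764 and 1.93 CPM in A226Y 3, 5, 7, 11, 15, 18, 22, 23, 29 and 32. WT 4, 6, 13, 14, 21, 24, 28 and 33 read 1.1, 1.74, 0.44, 0.39, 0.303, 0.503, 0.926 and 0.385 CPM. In 5 A226Y livers the value lay above every WT liver, all 10 lay above the WT mean of 0.723 ± 0.499 CPM, and WT 4, WT 6 and WT 28 lay within the A226Y range. The log2 fold change was 1.31 (SE 0.31, adjusted p = 0.0100; exact permutation p = 0.000823). With 4 surrogate variables the log2 fold change was 0.72 and the adjusted p 0.182. None of its 50-base windows occurred in another annotated gene. Cox6b1, the form of the same subunit found in most tissues, read 146 ± 25.8 CPM in A226Y and 140 ± 15.0 CPM in WT, with a log2 fold change of 0.06 (interval -0.14 to 0.26).

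Of the other tissue-restricted forms of complex IV subunits, Cox7b2, Cox8c, Cox4i2, Cox6a2 and Cox8b had too few counts to be tested. Cox7b2 and Cox8c had 0 counts in all 18 libraries, which allows up to between 0.0487 and 0.126 CPM across the libraries when 3 counts are taken as the limit of a count of 0. Such limits cover counting error only. Cox4i2 had at most 5 counts in a library. Cox6a2 and Cox8b, the heart and muscle forms of subunits VIa and VIII, were highest in A226Y 23, at 25 and 16 counts, and had at most 6 and 7 counts in the other libraries. The 5 striated muscle markers (Ckm, Acta1, Tnnt3, Myh4 and Mb) summed to 12.9 CPM in A226Y 23 and to at most 0.383 CPM in any other library. Cox6b2 was also highest in A226Y 23, and without that library it passed the test as well, as it did without any other single mouse. Cox7a1, the muscle form of subunit VIIa, read 1.39 ± 0.333 CPM in A226Y and 1.09 ± 0.482 CPM in WT (log2 fold change 0.33, interval -0.17 to 0.83).

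The forms that liver uses were abundant, and none passed the test with all mice. Cox4i1, the common form of subunit IV, read 469 ± 45.5 CPM in A226Y and 519.8 ± 58.8 CPM in WT (log2 fold change -0.15, SE 0.08, adjusted p = 0.206). Its lowest WT value was that of WT 33 (398 CPM), and without A226Y 23, A226Y 29 and WT 33 it passed (log2 fold change -0.20, adjusted p = 0.0299). Leaving out WT 33 raises the WT level of Cox4i1 by construction, so this call is a description only. Cox6a1, the liver form of subunit VIa, had a log2 fold change of -0.04 (interval -0.24 to 0.17), Cox7a2 one of 0.01 (interval -0.15 to 0.16), Cox8a one of -0.09 (interval -0.25 to 0.06), and Cox7a2l, which helps to join complexes III and IV, one of -0.06 (interval -0.19 to 0.06). The 3 genes for the identical mature subunit c of the ATP synthase were measured unequally. Atp5g3 read 498 ± 68.3 CPM in A226Y and 491 ± 44.2 CPM in WT, Atp5g1 read 27.3 ± 4.92 and 26.8 ± 2.38 CPM, and Atp5g2 read 0.852 ± 0.141 and 0.937 ± 0.185 CPM. All 392 windows of Atp5g2 and 66% of those of Atp5g1 occur in other annotated genes, so the levels of these forms are not comparable. None of the 3 passed.

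Levels per length of the nuclear genes, as CPM per kb of exon, ranged widely within each complex in WT livers. Ndufb9 was highest among nuclear complex I genes at 203 ± 22.1, followed by Ndufa4 at 187 ± 17, a gap within their spread. Sdhd led complex II at 215 ± 22.5, above Sdha at 120 ± 9.78. In complex III, Uqcrq (200.4 ± 18.8) and Uqcrfs1 (198 ± 17.6) were alike within their spread. Cox6a1 led the nuclear genes of complex IV at 398 ± 56.9, and Cox4i1 followed at 335 ± 37.9, both far below mt-Co1 of the mitochondrial genome (6584). Atp5a1 and Atp5b led the nuclear genes of complex V at 352 ± 25.9 and 318 ± 24.6. The order depends on which length is used, since per kb of coding sequence Ndufa4 (1049) lay above Ndufb9 (389) and Uqcrq (1491) above Uqcrfs1 (329). On that scale Cox4i1 (1025) lay above Cox6a1 (832), and Atp5g3 (1160.1) and Atp5e (1030.4) lay above Atp5b (848) and Atp5a1 (666). The 11 nuclear genes with at least 25% of their windows in other annotated genes had a median level of 16.3 CPM per kb over all mice, beside 66.1 CPM per kb (9.37 to 393) for the 24 genes with a smaller part and 71 CPM per kb (0 to 355) for the 47 genes with none.

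**Figure D3:**
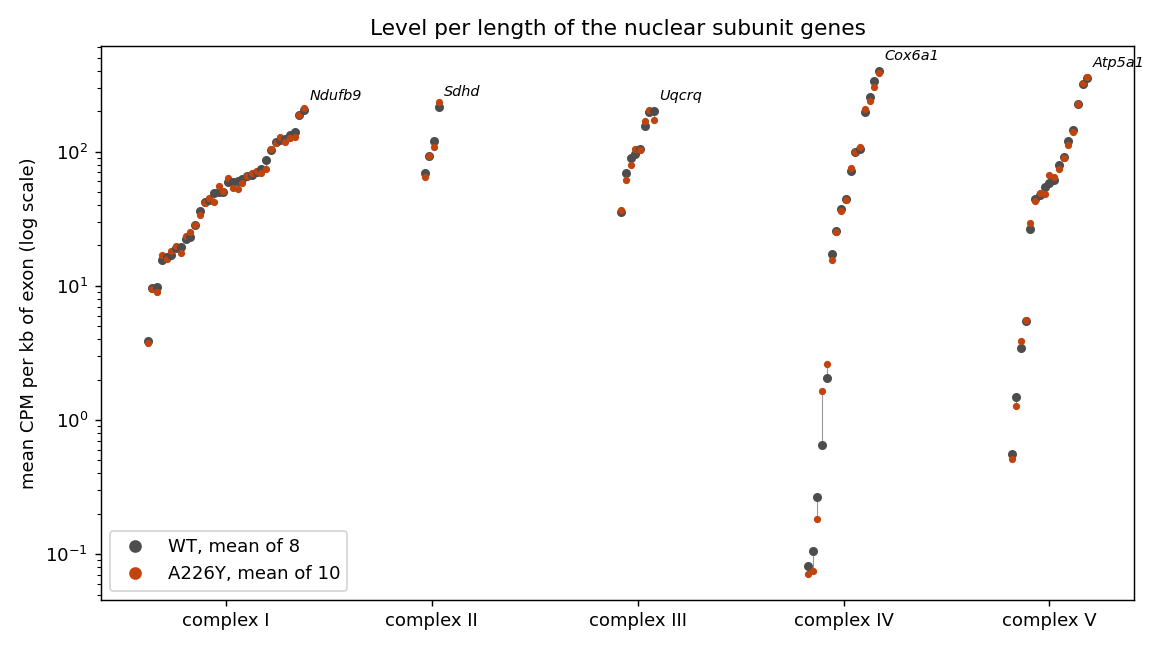
Mean CPM per kb of exon (log scale) of the nuclear subunit genes with a level above 0, 1 of complex I left out, by complex, in 8 WT livers (grey) and 10 A226Y livers (orange). Genes are ordered by their WT level, the highest is named, and the widest gap is that of Cox6b2, low in complex IV, beside smaller gaps for other rare forms such as Cox8b and Cox6a2, which were not tested.

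The 13 genes of the mitochondrial genome fell into a measured and an unmeasured set. mt-Nd1, mt-Nd2, mt-Co1, mt-Nd4, mt-Nd5, mt-Nd6 and mt-Cytb had at least 36925 counts in every library. The 5 genes mt-Co2, mt-Atp8, mt-Atp6, mt-Co3 and mt-Nd4l had 13 counts together over 18 libraries, and mt-Nd3 had 53 to 527 counts. These 6 genes lie side by side on the mitochondrial genome, from chrM:7013 to chrM:10173 (GRCm38). Pseudogenes that hold the same sequence lie side by side on chromosome 1. Between 98% and 100% of the 50-base windows of mt-Co2, mt-Atp6, mt-Co3, mt-Nd3 and mt-Nd4l occur in Gm28661, Gm10925, Gm28437, Gm28438 and Gm10222, which lie between 24612407 and 24615565 on that chromosome and are not among the counted genes. mt-Atp8 has no annotated copy, although its neighbours on both sides do. Of the flanking genes, 51.1% of the windows of mt-Co1 and 62.2% of those of mt-Nd4 occur elsewhere, against none of those of mt-Nd1, mt-Nd6 and mt-Cytb. A read that matches both places equally is usually left out when only unique alignments are counted, and the rule used for these counts is not given in the sources used here. Whether this removed the reads here was not tested, the zeros are not read as absent expression, and the sums for complexes IV and V lack most or all of their mitochondrial part.

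The first 50 bases of 4 mitochondrial genes show the contrast, with capitals for a window that occurs unchanged in a chromosome 1 pseudogene and lower case for one found in no other annotated gene. The sequences are from the GENCODE M21 transcripts on GRCm38, plus strand, at chrM:7013-7062, chrM:8607-8656, chrM:2751-2800 and chrM:14145-14194 in this order. mt-Co2 and mt-Co3 are among the unmeasured genes, and mt-Nd1 and mt-Cytb among the most abundant.
mt-Co2: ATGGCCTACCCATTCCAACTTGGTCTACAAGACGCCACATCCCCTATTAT
mt-Co3: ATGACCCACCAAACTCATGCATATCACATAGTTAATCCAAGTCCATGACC
mt-Nd1: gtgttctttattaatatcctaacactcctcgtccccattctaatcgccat
mt-Cytb: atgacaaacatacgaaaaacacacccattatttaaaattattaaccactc

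**Figure D4:**
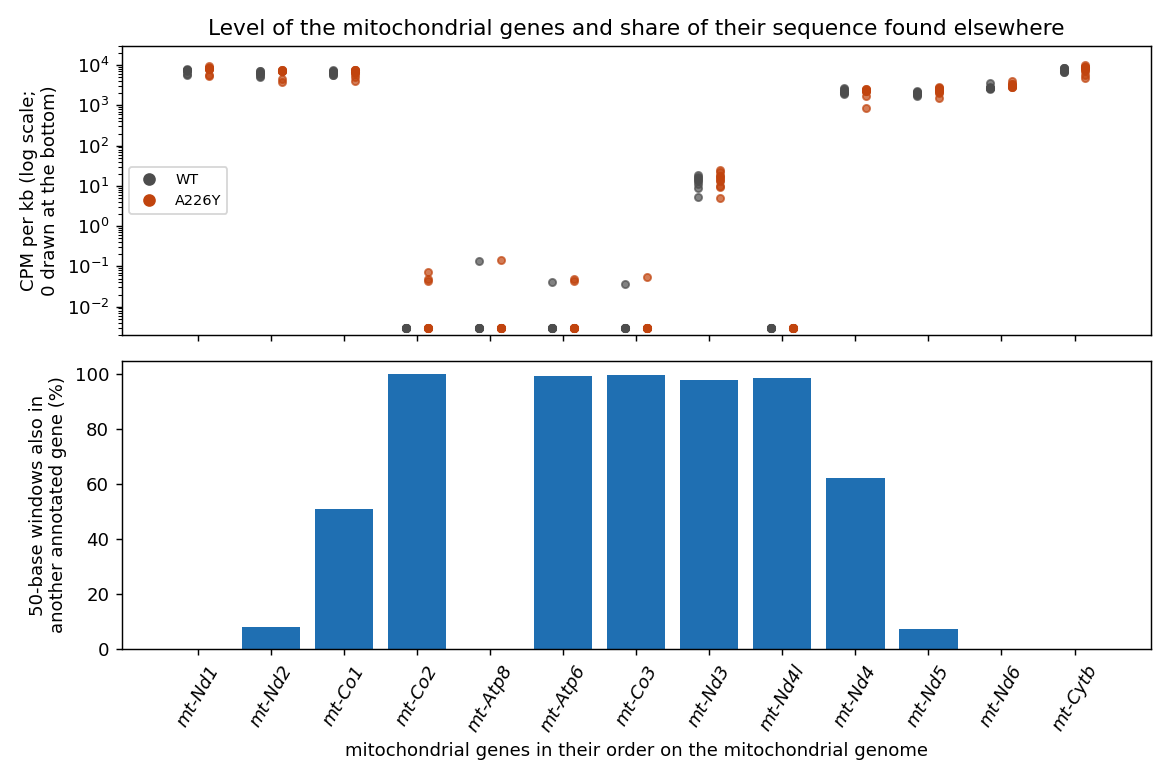
Upper panel, CPM per kb (log scale, 0 drawn at the bottom) of the 13 mitochondrial genes in each WT (grey) and A226Y (orange) liver, in their order on the mitochondrial genome. Lower panel, percent of each gene's 50-base windows that also occur in another annotated gene; mt-Co2 to mt-Nd4l drop out together, and except for mt-Atp8 nearly all of their windows occur elsewhere.

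None of the 8 tested mitochondrial genes passed. Of their log2 fold changes 6 lay at 0.06 or above, mt-Co1 was at 0.00 and mt-Nd4 at -0.06, and with the GC offset mt-Nd2 (-0.01), mt-Cytb (-0.02), mt-Co1 (-0.08) and mt-Nd4 (-0.16) lay below 0. mt-Nd5, a proton-pumping core subunit of complex I, read 2809, 4439 and 5088 CPM in A226Y and 3099.9, 3611 and 4235 CPM in WT. In 6 A226Y livers the value lay above every WT liver, and A226Y 23 alone lay below every WT liver. The log2 fold change was 0.23 (SE 0.10, adjusted p = 0.134), and without A226Y 23, its lowest value, the adjusted p was 0.0284. mt-Nd6 read 1463, 1608 and 2091 CPM in A226Y and 1314, 1417 and 1870.4 CPM in WT (log2 fold change 0.17, SE 0.08, adjusted p = 0.163). mt-Nd6 is encoded on the opposite strand to the other 12, so without strand its reads cannot be told apart from antisense transcripts of that stretch. mt-Nd1 and mt-Nd2 had log2 fold changes of 0.14 (interval -0.09 to 0.36) and 0.09 (interval -0.17 to 0.35). mt-Co1, the catalytic subunit of complex IV, had one of 0.00 (interval -0.23 to 0.24), mt-Cytb, the cytochrome b of complex III, one of 0.06 (interval -0.19 to 0.31), and mt-Nd4 one of -0.06 (interval -0.37 to 0.25). mt-Nd3, at 5.2 ± 2.07 CPM in A226Y and 4.45 ± 1.51 CPM in WT, had 98% of its windows elsewhere.

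The share of a library's counts assigned to the 13 mitochondrial subunit genes, in effect to the 7 well-measured ones, was 2.77, 4.5 and 5.11% (lowest, median and highest) in A226Y and 3.16, 4.11 and 4.55% in WT. The nuclear subunit genes took 1.01, 1.21 and 1.37% in A226Y and 0.922, 1.21 and 1.32% in WT. The 3 lowest shares of these mitochondrial genes were those of A226Y 23 (2.77%), WT 33 (3.16%) and A226Y 29 (3.27%). In A226Y 29 and WT 33 the nuclear subunit genes were low as well, with a median log2 CPM of 0.31 and 0.23 below each gene's mean over mice. In A226Y 23, the deepest library and the one with the muscle markers, they were high, at 0.23 above it. Kupffer cell and lymphocyte marker sums were highest in these same libraries, at 1042 and 34.9 CPM in A226Y 29 and 778 and 43.2 CPM in WT 33, as were the erythrocyte marker sums, at 389 and 699.5 CPM. The hepatocyte marker sum was the lowest of the 18 libraries in A226Y 29 (79084 CPM) and the highest in WT 33 (181229 CPM). The part of these cells in the result was not tested. Summed over the nuclear genes of each complex, A226Y and WT livers (mean ± SD) read 3304 ± 324 and 3348 ± 280.1 CPM for complex I, 1158 ± 140.2 and 1191 ± 103 CPM for complex II, 1423 ± 110.5 and 1488 ± 129.8 CPM for complex III, 1688 ± 163 and 1746 ± 169.9 CPM for complex IV and 4463 ± 467 and 4449 ± 341 CPM for complex V. In each complex the difference between the means was smaller than the SD of either group.

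**Figure D5:**
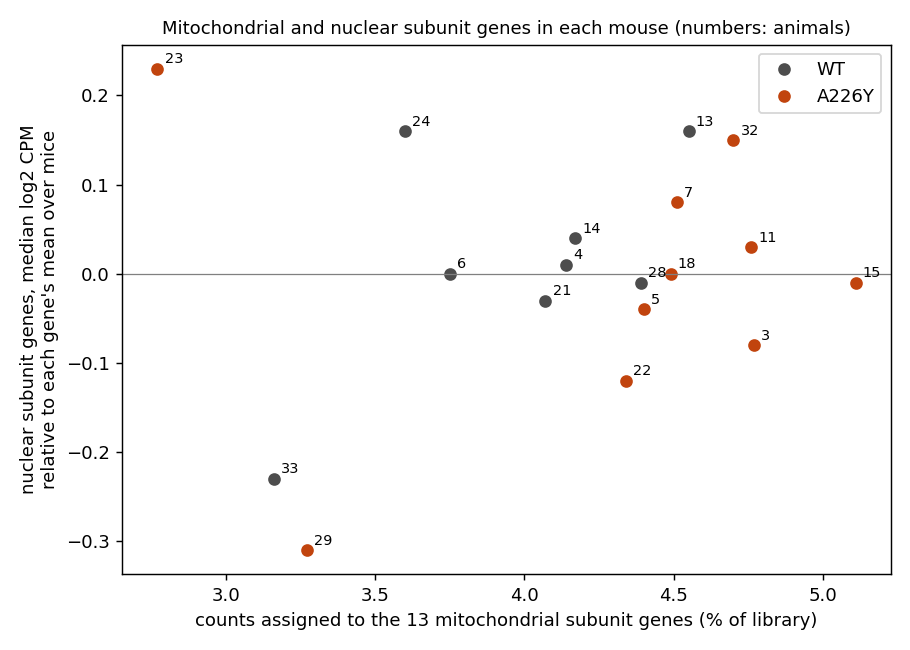
Each of 18 livers by the percent of its counts assigned to the 13 mitochondrial subunit genes (horizontal axis) and the median log2 CPM of the 77 tested nuclear subunit genes relative to each gene's mean over mice (vertical axis), with animal numbers. This share ran from 2.77 to 5.11% in A226Y and from 3.16 to 4.55% in WT, and A226Y 29 and WT 33 lie at the lower left and A226Y 23 at the upper left.

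The genes that build and supply the chain were followed as lists. Of 48 assembly factors 4 passed (8.33%, beside 14.3% of all tested genes, or 7.03% in the lower direction), all lower in A226Y, and the median log2 fold change was -0.047. These were Coa4, a twin CX9C protein of complex IV assembly (-0.37, SE 0.11, adjusted p = 0.0311), Ndufaf6, a complex I assembly factor (-0.26, SE 0.08, adjusted p = 0.0401), Bcs1l, which inserts the Rieske protein into complex III (-0.24, SE 0.08, adjusted p = 0.0407), and Surf1, a complex IV assembly factor (-0.24, SE 0.08, adjusted p = 0.0473). Of 29 genes of mitochondrial gene expression 2 passed (6.9%), both lower. They were Tefm, the mitochondrial transcription elongation factor, at 9.75 ± 1.10 CPM in A226Y and 11.7 ± 1.21 CPM in WT (log2 fold change -0.27, adjusted p = 0.0247), and Mterf4, which acts in mitochondrial ribosome assembly, at 13.6 ± 1.31 and 16.1 ± 1.31 CPM (log2 fold change -0.24, adjusted p = 0.0179). Tfam, which packages and transcribes mitochondrial DNA, and Polrmt, the mitochondrial RNA polymerase, had log2 fold changes of 0.00 (SE 0.07) and 0.09 (SE 0.09), with adjusted p-values of 0.999 and 0.497. Leaving out 1 mouse at a time ended the call in 5 of 18 cases for Coa4, 7 for Ndufaf6, 12 for Bcs1l, 14 for Surf1, 2 for Tefm and 0 for Mterf4. Without A226Y 23, A226Y 29 and WT 33, 7 assembly factors were lower and 1 was higher (16.7%, against 17.3% of all genes tested), with Ndufaf6, Bcs1l and Surf1 but not Coa4 among those that passed, and of the mitochondrial gene expression list Mterf4 alone passed.

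Of 16 regulators of respiratory chain genes 3 passed, all higher (18.8%, beside 14.3% of all tested genes, or 7.27% in the higher direction, with a median log2 fold change of 0.137). Without A226Y 23, A226Y 29 and WT 33, 4 passed, all higher, Gabpb2 being the added one (25%, beside 17.3% of all genes tested, or 8.33% in the higher direction). Ppargc1a, the coactivator known for driving mitochondrial biogenesis and, in fasted liver, gluconeogenesis, read 14.4, 19.2 and 30.1 CPM in A226Y and 9.67, 12.7 and 19.7 CPM in WT. The groups overlapped, and the log2 fold change was 0.74 (SE 0.16, adjusted p = 0.00539), and 0.19 with 4 surrogate variables (adjusted p = 0.388). Hcfc1, a chromatin-bound coregulator, had a log2 fold change of 0.21 (SE 0.05, adjusted p = 0.0151) and Nrip1, a corepressor of nuclear receptors, one of 0.29 (SE 0.09, adjusted p = 0.0381). Nrip1 did not pass in 9 of 18 cases with 1 mouse left out, and Ppargc1a and Hcfc1 passed in all 18. The factors that bind promoters of nuclear subunit genes had log2 fold changes of 0.00 for Nrf1 (SE 0.07, adjusted p = 0.999), 0.07 for Gabpa (SE 0.05, adjusted p = 0.371) and -0.05 for Esrra (SE 0.12, adjusted p = 0.817).

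Of 16 tested electron carriers and carriers of ATP, ADP and phosphate 2 passed, both higher (12.5%, beside 14.3% of all tested genes, or 7.27% in the higher direction). Most of the list went the other way, with 11 of 16 log2 fold changes below 0 and a median of -0.051. Both genes also passed without A226Y 23, A226Y 29 and WT 33, where 17.3% of all genes passed and 8.33% were higher. Cycs, the somatic cytochrome c that links complexes III and IV, read 3.16, 4.12 and 5.28 CPM in A226Y and 2.2, 2.61 and 3.38 CPM in WT, with a log2 fold change of 0.55 (SE 0.12, adjusted p = 0.00679). Its level is uncertain because 28.5% of its windows occur in 76 other annotated genes. Etfdh, which passes electrons from fatty acid oxidation to ubiquinone, read 318, 492 and 561 CPM in A226Y and 280, 418 and 431 CPM in WT (log2 fold change 0.31, SE 0.10, adjusted p = 0.0474). The lowest A226Y value was that of A226Y 29. With 1 mouse left out Cycs passed in all 18 cases and Etfdh in 2. With 4 surrogate variables none of the list genes named here passed.

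Promoters of the nuclear genes were read from the RefSeq table of GRCm38.p6, from 250 bases before to 50 bases after each start, and 67 of 82 nuclear genes were matched, some by a synonym. The NRF-1 core GCGCANGCG, on either strand, occurred for 19 of 67 genes, beside 7.03% of the 27025 genes in the table. The ETS motif CCGGAAG, which GABP binds, occurred for 16 of 67 (9.93% of all genes), the YY1 motif AAGATGGCG for 7 of 67 (1.64% of all genes) and the TATA box TATAAA for 7 of 67 (15.7% of all genes). By complex, the NRF-1 core occurred for 7 of 31 genes of complex I, 2 of 3 of complex II, 2 of 5 of complex III, 1 of 13 of complex IV and 7 of 15 of complex V. A match is a string of letters and not a site of binding.

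The 250 bases before the start are shown for the 4 genes past the test that the table holds, with the 4 motifs in capitals on either strand. Ndufa7, Ndufa3 and Atp5l each hold a TATA match, Atp5l also holds an NRF-1 core and an ETS match, and no match was found for Cox6b2. The spans are chr17:33824322-33824571 on the plus strand, the first of its 2 starts in the table, for Ndufa7, chr7:3617123-3617372 on the plus strand for Ndufa3, chr9:44920743-44920992 on the minus strand for Atp5l and chr7:4753095-4753344 on the minus strand for Cox6b2.
Ndufa7: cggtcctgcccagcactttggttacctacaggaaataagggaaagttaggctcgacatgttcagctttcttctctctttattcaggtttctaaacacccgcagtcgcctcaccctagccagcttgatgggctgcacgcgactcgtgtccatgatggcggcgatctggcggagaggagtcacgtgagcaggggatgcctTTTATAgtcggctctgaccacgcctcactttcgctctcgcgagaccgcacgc
Ndufa3: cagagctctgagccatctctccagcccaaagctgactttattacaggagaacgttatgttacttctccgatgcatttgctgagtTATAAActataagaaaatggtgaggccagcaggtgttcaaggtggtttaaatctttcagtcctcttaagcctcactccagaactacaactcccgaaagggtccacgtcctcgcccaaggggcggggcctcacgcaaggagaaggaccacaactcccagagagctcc
Atp5l: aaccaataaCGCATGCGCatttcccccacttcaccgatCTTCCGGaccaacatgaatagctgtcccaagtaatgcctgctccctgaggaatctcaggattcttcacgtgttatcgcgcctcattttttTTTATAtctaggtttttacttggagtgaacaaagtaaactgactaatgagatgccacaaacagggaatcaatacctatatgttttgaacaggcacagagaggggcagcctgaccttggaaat
Cox6b2: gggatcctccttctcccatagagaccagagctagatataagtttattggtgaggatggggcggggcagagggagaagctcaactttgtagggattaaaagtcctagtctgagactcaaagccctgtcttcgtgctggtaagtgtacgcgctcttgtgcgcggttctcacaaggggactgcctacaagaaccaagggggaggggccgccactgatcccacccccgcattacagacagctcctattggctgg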

How the data were processed

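Liver RNA of 10 A226Y and 8 WT mice was sequenced as 50-base single reads, and the authors deposited raw read counts per gene for each mouse (22524 identifiers, 22214 with a symbol). The submitters' processing notes name bcl2fastq, MultiQC, fastp, STAR and featureCounts and the GRCm38 build, whereas the paper's methods name RSEM; which of these gave the deposited counts, and how reads with several alignments or strand were handled, is not stated. Precision was set mainly by the spread between mice and by depth for rare genes, and SEs or intervals are printed with most fold changes.

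Counts were scaled by TMM and tested with edgeR 4.0.16 in R 4.3.3 (quasi-likelihood F test, group only, Benjamini-Hochberg over all tested genes), keeping genes with 10 counts or more in 50% or more of either group's mice. Single genes were also tested by a two-sided exact permutation test over all 43758 divisions of the mice, on log2 CPM with a prior count of 2. Its p-values are not adjusted for the number of genes. They come from the same mice and counts as the edgeR test, so they are not independent support for genes picked by that test. Libraries of a group differed in every pair beyond sampling noise (chi-square per degree of freedom 20.1 or more over 73 pairs). Lengths, positions and 50-base windows came from GENCODE M21. A window counted as shared when it occurred exactly, on either strand, in an annotated transcript of a gene elsewhere. Alternatives used DESeq2 1.42.0, limma 3.58.1 and sva 3.50.0, and the edgeR steps were tested on simulated data. Named genes were the mitochondrial genes, nuclear members past the test, the nuclear member of each complex with the highest level per length, tissue forms, the Sdh genes and the list genes past the test. Other genes were named after their values were seen. The members and lists were chosen with earlier results of these data known. Protein sequences were not analysed here, and 1 complex I gene, included in the counts, is not reported here by itself.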

Additional observations from a re-analysis of the deposited data

Results flagged for a closer look

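A mouse was singled out where its gap to the nearest mouse of its group was large for the range of that group (Dixon's criterion at the 95% level). This held in 17 of 114 groups of values, while chance gives about 1 in 20. No explanation of them was tested.

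A226Y 29 was the lowest A226Y liver for Sdhd (177 CPM), Sdha (321 CPM), Uqcrfs1 (219 CPM), Ndufaf6 (9.31 CPM) and Etfdh (318 CPM), for the summed nuclear genes of complex II (818 CPM) and of complex III (1154 CPM), and the highest for Polrmt (33.2 CPM). WT 33 was the lowest WT liver for Cox4i1 (398 CPM), for the share of counts from nuclear subunit genes (0.922%) and for the summed nuclear genes of complex III (1234 CPM). A226Y 23 had the highest total (62126131 counts), the lowest A226Y level of mt-Nd4 (1212 CPM) and the highest of Sdhb (295 CPM) and Cox6b1 (208 CPM). Outside these libraries, WT 13 was highest among WT livers for mt-Nd6 (1870.4 CPM) and WT 14 for Bcs1l (17.9 CPM).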

How the results depend on the processing

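Between 1 and 6 subunit genes passed when each mouse was left out in turn (1255 to 2560 of all genes, 1 to 6 nuclear and 0 to 1 mitochondrial subunit genes, 0 to 4 in complex I, 0 to 1 in complex III and 0 to 1 in complex V), and Cox6b2 passed every time. No lower gene passed without A226Y 3, A226Y 11, A226Y 22, WT 13, WT 14 or WT 24. No paired analysis was possible because the groups share no replicate numbers.

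Under other settings 1 subunit gene passed with library size alone as the scale and with no filter beyond 1 count (1 nuclear, 0 in complexes I, III and V). With DESeq2 and with upper quartile scaling 1 was higher and 5 were lower, Ndufa6 being the added one (18.1% and 14.4% of all genes passed). With RLE size factors and with edgeR's own expression filter the same genes passed as in the main test. With limma-voom 3 passed (3 nuclear, 1 in complex I, 0 in complex V), with a length offset 3 (2 nuclear, 1 mitochondrial, 1 in complex I, 0 in complex III) and with a GC offset 3 (3 nuclear, 1 in complex I, 0 in complex III). Without the mitochondrial genes in the library sizes 0 passed in complex V. With 4 surrogate variables 0 subunit genes passed in any complex and 50 of all genes. Library size alone moved the median of all genes to 0.039 and the share of calls that were higher from 50.8% to 67.9%. Without A226Y 23, A226Y 29 and WT 33, a setting chosen after seeing the data, 13 passed (12 nuclear, 1 mitochondrial, 8 in complex I, 2 in complex IV, 2 in complex V). The causes were not tested.

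Log2 fold changes that were small turned sign at 2 decimals. With surrogate variables these were mt-Nd4 (0.04), Ndufb9 (-0.01), Atp5a1 (-0.01), Cox7a2 (-0.06), Atp5g1 (-0.14), Atp5g3 (-0.02), Sdhb (0.01) and Polrmt (-0.07). With the length offset they were mt-Nd4 (0.03), Cox6a1 (0.06), Cox7a2l (0.01), Cox8a (0.01) and Sdhb (0.06), with the GC offset mt-Nd2 (-0.01), mt-Cytb (-0.02), Cox6a1 (0.05) and Sdhb (0.04), and with library size alone Sdhb (0.02). Without the 3 libraries they were mt-Nd4 (0.07), Cox6b1 (-0.02) and Atp5g3 (-0.01). Leaving out 1 mouse gave ranges of -0.03 to 0.07 for Atp5g1, -0.02 to 0.06 for Atp5g3, -0.09 to 0.01 for Cox6a1, -0.01 to 0.09 for Cox6b1, -0.03 to 0.04 for Cox7a2, -0.08 to 0.03 for Sdhb and -0.09 to 0.04 for mt-Nd4. Per kb of coding sequence the WT levels were 389 for Ndufb9, 554 for Sdhd, 329 for Uqcrfs1, 832 for Cox6a1 and 666 CPM for Atp5a1, and per kb of the longest transcript 297 for Ndufb9 and 413 CPM for Atp5a1. The 10 genes left out of the test had too few counts.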
